A study of Mus musculus with 114 samples.

Results

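Gad1, Gad2 and Slc32a1 encode the proteins that make the inhibitory transmitter GABA and load it into synaptic vesicles, and they were followed here in ribosome-bound RNA from mouse prefrontal cortex. The members were the rows of the count table whose gene identifiers map to these 3 symbols. All 3 were found among 13101 genes, and all 3 passed the filter on low counts. No gene of GABA reuptake is among them.

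GABA is made from glutamate by 2 glutamate decarboxylases, one encoded by Gad1 and the other by Gad2. The Gad1 enzyme is spread through the cell body and axon and makes most of the GABA of the brain, whereas the Gad2 enzyme is attached to synaptic vesicles and depends more on activity and on its cofactor, pyridoxal phosphate. Slc32a1 encodes the vesicular transporter that fills vesicles with GABA or glycine. In the cortex these genes mark inhibitory interneurons of all classes, among them the fast-spiking parvalbumin (PV) cells, while excitatory pyramidal cells use glutamate and its own vesicular transporters.

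Libraries came from Ribo-tag mice, in which ribosomes of 1 chosen cell type carry a haemagglutinin tag, so that an antibody can recover them and their RNA from homogenised tissue. The Cre driver, strain and age are not given in the labels used here, nor is it stated whether each library is a separate mouse. P-values therefore measure the spread between libraries, which may be technical. Titles begin with PV or C, followed by zeitgeber time (ZT, hours after lights on) of 2, 6, 10, 14, 18 or 22 and by sex. The comparison used 55 PV-titled libraries (28 female, 27 male) and 58 C-titled libraries (29 female, 29 male), with 4 to 5 in each group of prefix, time and sex. The labels' cell type entry names the opposite cell for every library, pyramidal for PV titles and parvalbumin for C titles, so the groups are called by their titles. Most markers went with the titles. In PV-titled libraries 9 of 9 PV interneuron genes tested were higher. Of 12 pyramidal genes 10 were lower, Rorb was higher (0.27 in log2) and Cux2 was not called. Among all genes tested, 44.3% were called higher and 43.2% lower in PV-titled libraries. Pvalb averaged 38.9 CPM (reads scaled to the same library total) in PV-titled and 1.07 CPM in C-titled libraries, and the pyramidal transporter gene Slc17a7 721 and 1710 CPM.

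Reads on genes came to between 19.1 and 39.5 M in PV-titled libraries, and to between 24.6 and 44.1 M in C-titled ones. Library numbers in the titles fall into 2 ranges, whose meaning the labels do not give; the first holds 26 PV-titled and 29 C-titled libraries, the second 29 and 29. The range was a term in every fit. Correlation with the other libraries of the prefix set 8 libraries apart, 3 PV-titled and 5 C-titled. Marker lists of other cells also differed between prefixes, since 9 of 9 astrocyte, 6 of 6 oligodendrocyte, 7 of 7 microglial and 5 of 5 endothelial genes in the table were higher in PV-titled libraries. The summed astrocyte markers ran from 913 to 1568 CPM there and from 265 to 1022 CPM in C-titled libraries, and no gene of these lists was at 0 in all libraries of a prefix. Of 11 genes of other interneuron classes tested, 9 were higher in PV-titled libraries, 1 was lower and 1 was not called. The shares over all genes were 44.3% higher and 43.2% lower. The part of any of these marker lists in the results below was not tested.

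All 3 members lie on the plus strand of chromosome 2 (GRCm38, GENCODE vM21). Gad1 spans positions 70553072 to 70602014, Gad2 22622205 to 22693874 and Slc32a1 158610767 to 158615748. The coding sequences of Gad1 (1779 bases without the stop codon) and Gad2 (1755 bases) were identical at 68.0% of aligned bases. Their longest shared run, shown because reads inside such a run could belong to either gene, was 17 bases, at 70593454 to 70593470 in Gad1 and 22673966 to 22673982 in Gad2:
shared Gad1 and Gad2 run: cctcacaagatgatggg
Slc32a1 shared no run over 10 bases with either of them. The antisense gene Gm14205 covers 24.9% of the exon bases of Slc32a1, and whether the counting used strand is not given in the sources used here, so reads of the pair cannot be told apart without it. Gad1os, antisense to Gad1, shares no exon base with it.

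The stretches upstream of the starts are printed as a description, and no link between them and the levels of the members was tested. They are the parts of the 250 bases before each RefSeq start (GRCm38.p6, plus strand) that hold no annotated exon, at chr2:70561879-70562041 for Gad1, chr2:22622077-22622204 for Gad2 and chr2:158610724-158610757 for Slc32a1:
Gad1: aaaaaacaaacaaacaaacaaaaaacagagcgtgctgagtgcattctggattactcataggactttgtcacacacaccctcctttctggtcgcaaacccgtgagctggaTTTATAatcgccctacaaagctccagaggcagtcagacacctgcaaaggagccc
Gad2: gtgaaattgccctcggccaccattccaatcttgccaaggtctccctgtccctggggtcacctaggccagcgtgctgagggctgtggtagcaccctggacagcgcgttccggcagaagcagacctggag
Slc32a1: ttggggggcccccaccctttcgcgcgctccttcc
Capitals mark TATAAA read on the minus strand, 141 bases before the Gad1 start. The stretches of Gad2 and Slc32a1 hold none of the motifs searched on both strands. In the whole windows of 250 bases before the start, none of the 3 members held the E-box CACGTG or the homeobox core TAATTA. Of 32851 promoter windows of this length, 6.02% and 4.84% held them. TGACG was found in Gad2 and GGGCGG and TATAAA in Gad1, against 17.8%, 32.7% and 12.4% of all windows. A match is a description of letters and not of a bound site.

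Gad1, of the cell-wide decarboxylase, was far higher in the PV-titled group. It ran from 209.4 through a median of 407 to 782 CPM in the 55 PV-titled libraries, and from 10.8 through 22.6 to 91.1 CPM in the 58 C-titled libraries. The lowest PV-titled library lay above the highest C-titled one. The means were 416 ± 113 CPM (SD, n = 55) and 26.4 ± 14.5 CPM (SD, n = 58). The fitted difference was 4.04 on the log2 scale (SE 0.09), or 16.5-fold (95% interval 14.5 to 18.7), with an adjusted p of 3e-63 from edgeR's quasi-likelihood test.

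Gad2 differed by a smaller factor, again with no overlap. Its levels ran from 60.4 through 95.3 to 189.3 CPM in PV-titled and from 5.94 through 8.94 to 27.5 CPM in C-titled libraries. The means were 99.2 ± 26.2 CPM (SD, n = 55) and 10.2 ± 4.01 CPM (SD, n = 58). The fitted difference was 3.30 in log2 (SE 0.08), or 9.83-fold (95% interval 8.81 to 10.97), with an edgeR adjusted p of 2.26e-62.

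Slc32a1 was the scarcest member and had the highest fitted fold of the 3. PV-titled libraries ran from 1.23 through 4.82 to 19.4 CPM (18 to 485 reads), and C-titled libraries from 0 through 0.180 to 1.34 CPM (0 to 31 reads). Of the C-titled libraries, 2 had no read and 17 had at most 3 reads, where a count of 0 allows up to 3. The means were 6.15 ± 3.95 CPM (SD, n = 55) and 0.231 ± 0.210 CPM (SD, n = 58). The fitted difference was 4.62 in log2 (SE 0.17), or 24.6-fold (95% interval 19.5 to 31.1), with an edgeR adjusted p of 1.36e-46. Only 1 PV-titled library fell below the highest C-titled library, and both libraries in that overlap stand apart from their prefix. Among the libraries that do not, the lowest PV-titled value was 1.49 CPM and the highest C-titled value 0.734 CPM.

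Of 13053 genes tested, 44.3% were called higher and 43.2% lower in PV-titled libraries, so a call alone says little about the members. Of the called genes 50.7% were higher, and 61.7% when library totals alone set the scale, with a median over genes of 0.21 in log2 in place of 0.01 and member differences of 4.24, 3.50 and 4.82. For 2.41% of genes every PV-titled library lay above every C-titled one, which held for Gad1 and Gad2 and not for Slc32a1. The size of the difference placed the members near the top, with 11 genes above Gad1, 50 above Gad2 and 7 above Slc32a1. The median over all genes was 0.01 in log2, against 4.04 for the members. In bulk pull-downs a larger number of cells of a type and more RNA per cell cannot be told apart.

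**Figure D1:**
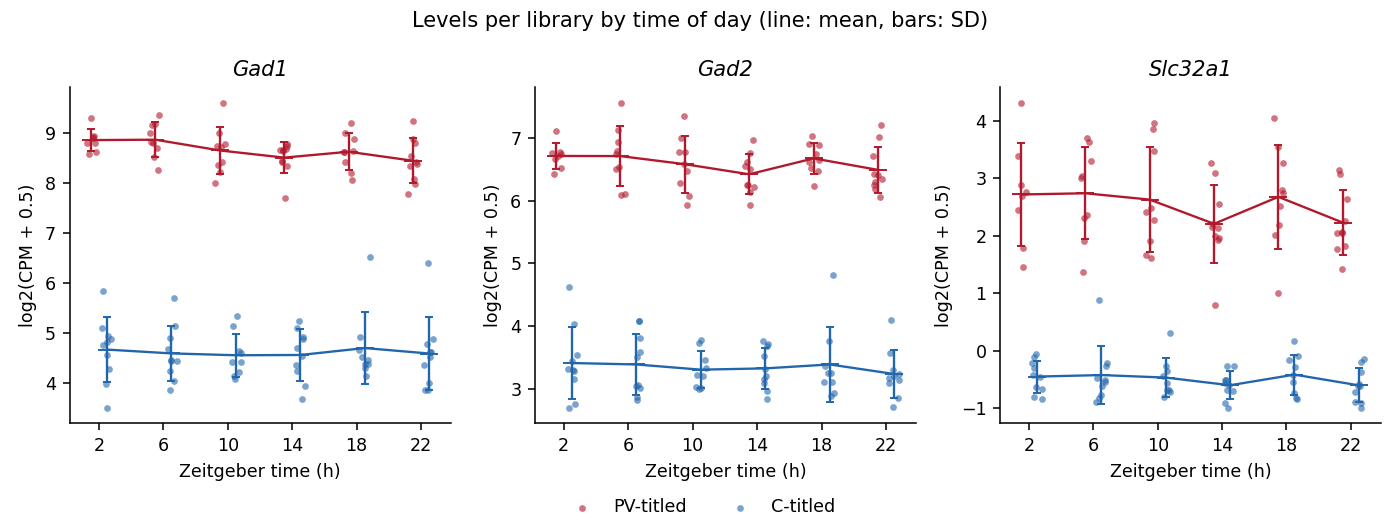
Level of each member in every library, as log2(CPM + 0.5), against zeitgeber time in hours, with lines through the means and bars of 1 SD. The PV-titled libraries (red) of Gad1 and Gad2 lie above all C-titled libraries (blue) at every time, and Slc32a1 overlaps in 1 library of each prefix.

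Per kilobase of exon (7.639 kb for Gad1, 5.876 kb for Gad2 and 2.797 kb for Slc32a1) the order of levels was the same in both prefixes. PV-titled libraries averaged 54.5 ± 14.8 CPM per kb for Gad1, 16.9 ± 4.46 for Gad2 and 2.20 ± 1.41 for Slc32a1 (SD, n = 55). C-titled libraries averaged 3.46 ± 1.90, 1.73 ± 0.68 and 0.0825 ± 0.0752 CPM per kb (SD, n = 58). Gad1 was above Gad2 within 55 of 55 PV-titled and 57 of 58 C-titled libraries, and Gad2 above Slc32a1 within all 113, although the ranges of Gad1 and Gad2 over libraries overlapped in both prefixes.

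The makeup of the 2 decarboxylase transcripts differed between prefixes. The log2 ratio of Gad1 to Gad2, with 0.5 CPM added to each, ran from 1.66 through 2.04 to 2.71 in PV-titled and from 0.18 through 1.31 to 2.29 in C-titled libraries. The groups overlap, with means of 2.06 ± 0.27 (SD, n = 55) and 1.28 ± 0.38 (SD, n = 58). The difference of 0.78 had a p of 1e-05 by a two-sided permutation test, the smallest that 100000 permutations can give, and 1.5e-05 adjusted over 3 ratios. It was 0.70 within the first library-number range and 0.88 within the second. In summed reads, Gad1 had 4.20 reads for each Gad2 read in PV-titled libraries and 2.64 in C-titled ones.

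The sign of the differences in the ratios of Slc32a1 to the decarboxylases depended on the amount added before the log. In summed reads with nothing added, an alternative chosen after seeing the data, the log2 ratio was higher in PV-titled libraries by 0.73 for Slc32a1 to Gad1 (adjusted permutation p 0.00012) and by 1.40 for Slc32a1 to Gad2 (adjusted permutation p 1.5e-05). With 0.1 CPM added the differences were 0.14 (adjusted permutation p 0.373) and 0.89 (adjusted permutation p 1.5e-05). With 0.5 CPM added, as for the ratio above, they were -1.02 (adjusted permutation p 1.5e-05) and -0.24 (adjusted permutation p 0.019). The added 0.5 CPM exceeds the mean Slc32a1 level of the C-titled libraries, 0.231 CPM, and 0.1 CPM does not. The fitted folds given above, which do not use these added amounts, were 24.6 for Slc32a1, 16.5 for Gad1 and 9.83 for Gad2.

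**Figure D2:**
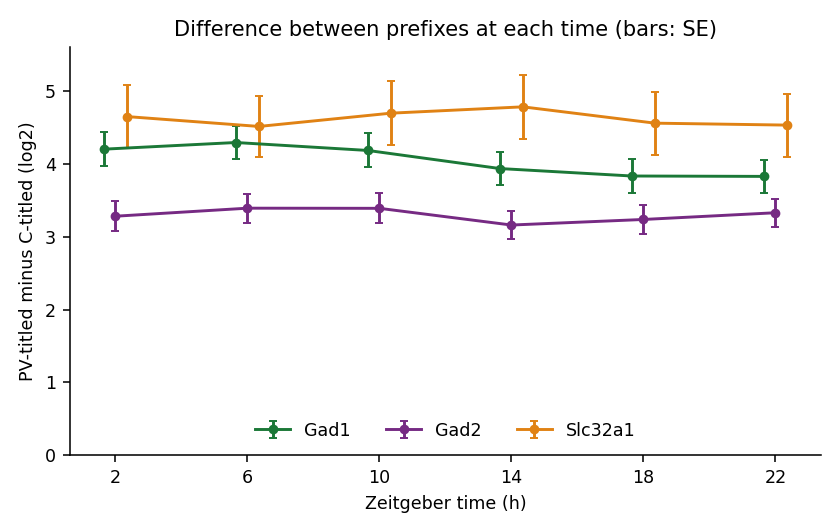
Fitted difference between PV-titled and C-titled libraries in log2 at each zeitgeber time in hours, with bars of 1 SE. Gad1 lies between 3.83 and 4.29, Gad2 between 3.16 and 3.39 and Slc32a1 between 4.51 and 4.78.

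The difference between prefixes stayed large at each time of day. For Gad1 it was 4.20 at ZT2, 4.29 at ZT6, 4.18 at ZT10, 3.94 at ZT14, 3.83 at ZT18 and 3.83 at ZT22 in log2, with SE from 0.22 to 0.24. Gad2 ranged from 3.16 at ZT14 to 3.39 at ZT6 (SE 0.19 to 0.21), and Slc32a1 from 4.51 at ZT6 to 4.78 at ZT14 (SE 0.42 to 0.44). The interaction of prefix and time was not called for any member, with edgeR adjusted p of 0.89 for Gad1, 0.992 for Gad2 and 0.999 for Slc32a1. It was called for 0.0766% of all genes.

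Within PV-titled libraries Gad1 had its higher means in the light phase, without passing the rhythm test. The levels at ZT2 ran from 382 through 464 to 628 CPM, with a mean of 469 ± 75.5 CPM (SD, n = 8). At ZT6 they ran from 305 through 450 to 658 CPM, with a mean of 479 ± 113 CPM (SD, n = 9). The mean was 424 ± 156.3 CPM at ZT10 (n = 9), 371 ± 68.5 CPM at ZT14 (n = 10), 407 ± 102 CPM at ZT18 (n = 9) and 364 ± 117 CPM at ZT22 (n = 10, all SD). The libraries at every time overlap with those at every other time. A cosine of 24 h fitted to PV-titled libraries gave Gad1 a mean-to-peak amplitude of 0.17 in log2 (SE 0.07) with a peak at ZT5.35, and an edgeR p of 0.0671, adjusted 0.33.

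Gad2 in PV-titled libraries had time means between 87.2 ± 19.7 CPM at ZT14 (SD, n = 10) and 110 ± 38.0 CPM at ZT6 (SD, n = 9). Its amplitude was 0.08 (SE 0.07, edgeR adjusted p 0.753). Slc32a1 had means between 4.53 ± 2.11 CPM at ZT22 (SD, n = 10) and 7.32 ± 5.43 CPM at ZT2 (SD, n = 8), with an amplitude of 0.18 (SE 0.13, edgeR adjusted p 0.698). The fitted peaks, ZT4.87 and ZT7.61, carry no call.

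In C-titled libraries the time means of Gad1 lay between 24.1 ± 8.10 CPM at ZT10 (SD, n = 9) and 29.7 ± 23.3 CPM at ZT18 (SD, n = 9). Gad2 lay between 9.23 ± 2.98 CPM at ZT22 (SD, n = 10) and 10.97 ± 5.35 CPM at ZT2 (SD, n = 10). Slc32a1 lay between 0.167 ± 0.110 CPM at ZT14 (SD, n = 10) and 0.297 ± 0.380 CPM at ZT6 (SD, n = 10). The amplitudes were 0.12 (SE 0.09), 0.03 (SE 0.08) and 0.18 (SE 0.21) in log2, with edgeR adjusted p of 0.604, 0.955 and 0.781.

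Thus 0 of 3 members were called rhythmic in either prefix, with edgeR. The test called 3.1% of genes in PV-titled libraries and 27% in the C-titled group, and at an unadjusted p under 0.05 the count of members was 0 as well. The upper 95% limits of the fitted amplitudes allow trough-to-peak folds of up to 1.53 for Gad1, 1.33 for Gad2 and 1.83 for Slc32a1 in PV-titled libraries, and 1.51, 1.31 and 2.28 in C-titled libraries. The 5 clock genes used as a reference were called in both prefixes. Ciart, a repressor in the clock loop, had an amplitude of 0.93 (SE 0.07) in PV-titled and 0.91 (SE 0.05) in C-titled libraries. Dbp, a clock output factor, had 0.64 (SE 0.05) and 0.76 (SE 0.04). The smallest of the 5 was 0.28 for Nr1d1 in PV-titled and 0.22 for Arntl in C-titled libraries. The test of a rhythm difference between prefixes gave the members edgeR adjusted p of 0.517, 0.927 and 0.981, and called 1.12% of genes.

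**Figure D3:**
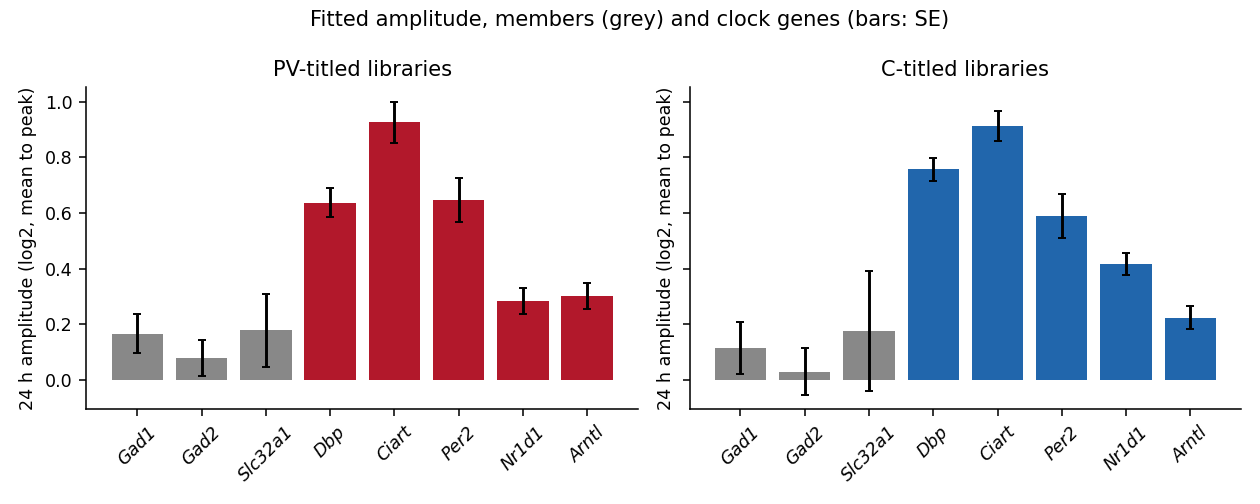
Fitted 24 h amplitude (mean to peak, log2) of the 3 members in grey and of 5 clock genes in colour, for PV-titled and C-titled libraries, with bars of 1 SE. The members lie between 0.03 and 0.18 and the clock genes between 0.22 and 0.93.

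Females and males overlapped for every member. In PV-titled libraries Gad1 averaged 400 ± 92.9 CPM in females (SD, n = 28) and 433 ± 131 CPM in males (SD, n = 27), Gad2 96.1 ± 27.1 and 102 ± 25.3 CPM, and Slc32a1 5.70 ± 3.41 and 6.63 ± 4.45 CPM. In C-titled libraries Gad1 averaged 26.8 ± 15.5 CPM in females and 26.0 ± 13.8 CPM in males (SD, n = 29 each). The male minus female differences were 0.11, 0.10 and 0.18 in log2 in PV-titled libraries (SE 0.10, 0.09 and 0.18) and 0.02, -0.14 and -0.27 in C-titled libraries (SE 0.13, 0.12 and 0.30). None was called (edgeR adjusted p 0.999 in PV-titled and 0.859 to 0.981 in C-titled libraries), against 0.0307% and 0.184% of genes. The interaction of sex and prefix was called for 0% of genes, with 360 of 13053 at an unadjusted p under 0.05 and none of the members among them (edgeR adjusted p 0.999 for each).

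The library-number range went with the level of some members. Slc32a1 in PV-titled libraries ran from 1.23 through 3.93 to 7.49 CPM in the first range (n = 26) and from 2.91 through 7.95 to 19.4 CPM in the second (n = 29). Gad1 in C-titled libraries ran from 17.2 through 29.1 to 91.1 CPM in the first range and from 10.8 through 19.1 to 30.0 CPM in the second (n = 29 each). The ranges overlap in both cases. Each time and sex is found in both ranges, and the difference between prefixes was present within each: 3.64 and 4.45 in log2 for Gad1, 2.99 and 3.59 for Gad2, and 4.25 and 4.98 for Slc32a1.

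Libraries of a prefix that were high in one decarboxylase were high in the other. Over 55 PV-titled libraries log2(CPM + 0.5) of Gad1 and Gad2 correlated with a Pearson r of 0.74 and a Spearman rho of 0.66 (permutation p 1e-05 for each, adjusted 2e-05 over 6 relations). The r was 0.68 without the 2 libraries farthest from the median of Gad2, and 0.51 and 0.91 within the ranges. Over 58 C-titled libraries r was 0.76 and rho 0.68 (permutation p 1e-05 for each, adjusted 2e-05), with r of 0.66 without the 2 farthest and 0.87 and 0.49 within the ranges.

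Slc32a1 varied with both in PV-titled libraries. Its r was 0.56 with Gad1 (rho 0.49, adjusted permutation p 3e-05 and 0.000435) and 0.66 with Gad2 (rho 0.65, adjusted permutation p 2e-05 for each). Without the 2 farthest libraries these r were 0.47 and 0.62. Within the ranges they were 0.60 and 0.69 with Gad1, and 0.42 and 0.69 with Gad2. In C-titled libraries, where reads were few, r was 0.10 with Gad1 (rho 0.16, adjusted permutation p 0.474 and 0.226) and 0.33 with Gad2 (rho 0.34, adjusted permutation p 0.015 and 0.0113). The last r was 0.36 without the 2 libraries farthest from the median of Gad2, and 0.10 and 0.74 within the ranges. It was 0.25 over the 53 C-titled libraries that do not stand apart.

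Marker scores are the mean log2(CPM + 0.5) of a marker list. In PV-titled libraries the score of 9 PV interneuron genes had r of 0.87 with Gad1 (rho 0.79), 0.74 with Gad2 (rho 0.69) and 0.77 with Slc32a1 (rho 0.76). Each had a permutation p of 1e-05 (adjusted 2.4e-05 for r and 3e-05 for rho over 24 relations). Without the 2 farthest libraries r was 0.83, 0.71 and 0.76. Within the first range it was 0.80, 0.40 and 0.74, and within the second 0.93, 0.89 and 0.83. The score of other interneuron classes had r between -0.23 and 0.17 with the members in the same libraries, with adjusted permutation p from 0.136 to 0.477. The pyramidal score had r of 0.30 with Slc32a1 (rho 0.31, adjusted permutation p 0.048 and 0.0408), 0.26 without the 2 farthest libraries, and 0.23 and -0.25 within the ranges. With Gad1 and Gad2 its r was -0.16 and 0.17 (adjusted permutation p 0.261 for each). The astrocyte score had r of -0.16, -0.29 and -0.28 with Gad1, Gad2 and Slc32a1 (adjusted permutation p 0.261, 0.0512 and 0.062).

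In C-titled libraries Gad1 and Gad2 went with several marker lists at once, and Slc32a1 passed the test with the PV interneuron score alone of the 4. Gad1 had r of 0.82 with the other interneuron score (rho 0.71), 0.81 with the astrocyte score (rho 0.77), 0.70 with the PV interneuron score (rho 0.49) and -0.58 with the pyramidal score (rho -0.59). The adjusted permutation p was 2.4e-05 for each r and at most 0.00036 for each rho. Without the 2 farthest libraries r was 0.75, 0.82, 0.56 and -0.56. Within the first and second range it was 0.82 and 0.53, 0.80 and 0.55, 0.79 and 0.43, and -0.34 and -0.27. Gad2 had r of 0.68, 0.77 and 0.72 with the first 3 of these scores (adjusted permutation p 2.4e-05 for each), and of -0.23 with the pyramidal score (adjusted permutation p 0.131). Slc32a1 had r of 0.31 with the PV interneuron score (rho 0.39, adjusted permutation p 0.048 and 0.0063), 0.33 without the 2 farthest libraries, and 0.32 and 0.45 within the ranges. Its r was 0.21 with the other interneuron score, 0.29 with the pyramidal score and 0.10 with the astrocyte score (adjusted permutation p 0.14, 0.0512 and 0.4662). The part of these markers in the members' levels was not tested.

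**Figure D4:**
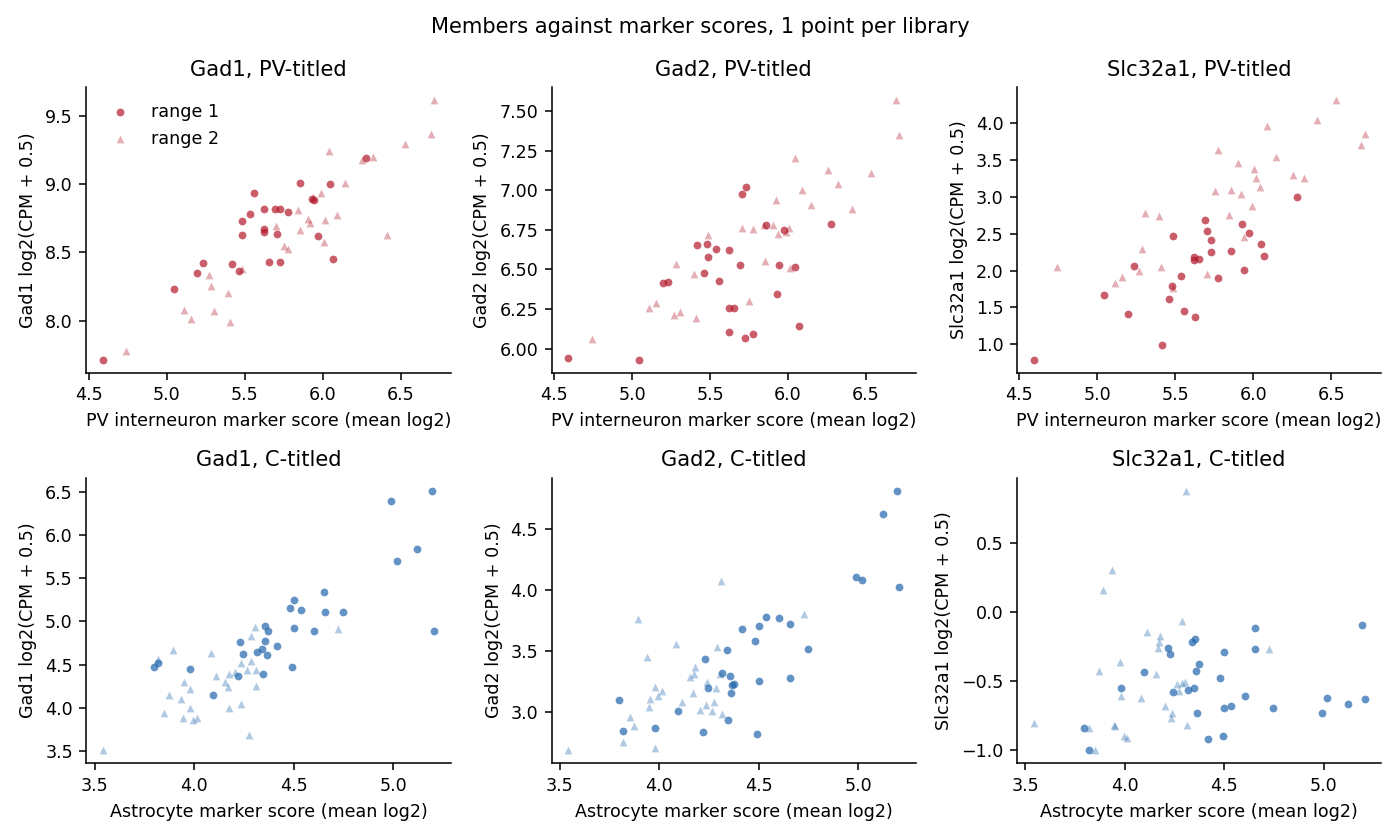
Each member as log2(CPM + 0.5) against the PV interneuron score in PV-titled libraries (top) and the astrocyte score in C-titled libraries (bottom), 1 point per library and 1 symbol per library-number range. Gad1 follows the score with r of 0.87 above and 0.81 below, and Slc32a1 with r of 0.77 above and 0.10 below.

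The genes whose profile over libraries was most like the members were found from residuals after time, sex and range. In PV-titled libraries these were Slc24a2 (r 0.87), Btbd11 (0.83), Kcnab3 (0.81), Cplx1 (0.81) and Atp1b1 (0.78) among 12991 genes over 55 libraries. Slc24a2 encodes a potassium-dependent sodium and calcium exchanger, Kcnab3 a potassium channel subunit, Cplx1 a complexin of the release machinery and Atp1b1 a sodium pump subunit. Between prefixes, Btbd11 and Kcnab3 were 9.29-fold and 8.07-fold higher in PV-titled libraries, Slc24a2 and Cplx1 1.43-fold and 1.60-fold higher, and Atp1b1 1.61-fold lower. A member against the mean of the other 2 had r of 0.79 for Gad1, 0.72 for Gad2 and 0.63 for Slc32a1.

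In C-titled libraries the most similar profiles included those of Hepacam (r 0.80), Npy (0.78), Slco1c1 (0.78) and Car2 (0.75) among 12844 genes over 58 libraries. Npy encodes a neuropeptide of interneurons, Hepacam a cell adhesion protein of glia, Slco1c1 a thyroid hormone transporter and Car2 a carbonic anhydrase. All 4 were higher in PV-titled libraries, Npy 8.71-fold, Slco1c1 6.33-fold, Car2 5.59-fold and Hepacam 4.31-fold, with an edgeR adjusted p of at most 2.45e-45 over all genes tested. The r of a member against the mean of the others was 0.60 for Gad1, 0.71 for Gad2 and 0.31 for Slc32a1.

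**Figure D5:**
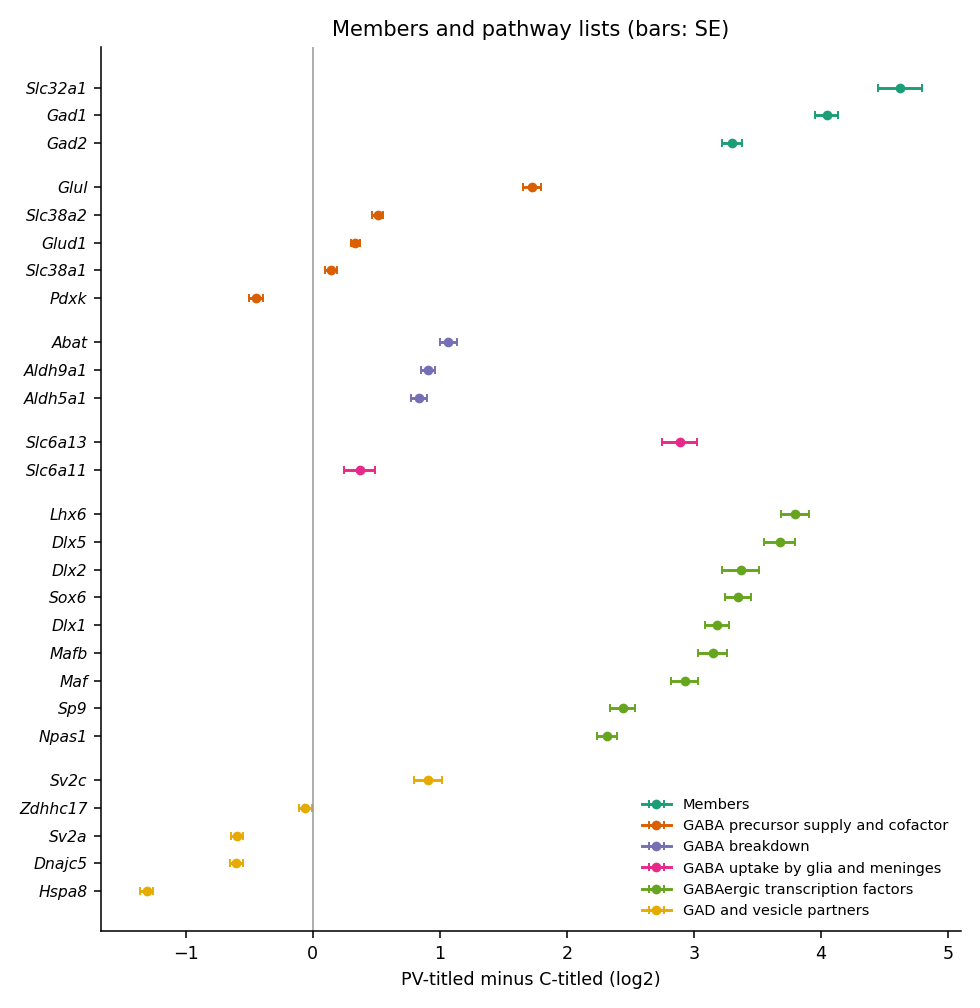
Fitted difference between PV-titled and C-titled libraries (log2, bars of 1 SE) for the members and for genes of 5 pathway lists, 1 row per gene. The members lie between 3.30 and 4.62, the transcription factors between 2.32 and 3.79, and the genes of the other lists between -1.30 and 2.89.

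Transcription factors of the GABAergic lineage were higher in PV-titled libraries, in 10 of 10 listed genes in the table, with a median of 3.26 in log2. Over all genes tested 44.3% were called higher and 43.2% lower, with a median of 0.01. Lhx6, which specifies interneurons of the medial ganglionic eminence, averaged 32.9 ± 11.4 CPM against 2.43 ± 1.17 CPM, a difference of 3.79 (SE 0.11). Dlx5 and Dlx2, homeobox factors of the ventral forebrain, differed by 3.68 (SE 0.12) and 3.37 (SE 0.14). All values are for 55 PV-titled and 58 C-titled libraries with SD, and the edgeR adjusted p of these 3 genes was at most 4.71e-41.

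The genes that supply the substrate and cofactor of GABA synthesis differed far less. Of 7, 5 were higher and 2 lower in PV-titled libraries, with a median of 0.34 in log2. Calls made up 44.3% (higher) and 43.2% (lower) of all genes, so these counts alone say little. Glul, the glutamine synthetase of astrocytes, was higher by 1.73 (SE 0.07, edgeR adjusted p 1.08e-44). Slc38a2, a glutamine transporter, was higher by 0.51 (SE 0.05). Pdxk, the kinase that makes pyridoxal phosphate, was lower, at -0.45 (SE 0.05).

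The 3 genes of GABA breakdown were all higher in PV-titled libraries, as were 44.3% of all genes, with a median of 0.91 for the 3. Abat, the GABA transaminase, averaged 190 ± 49.3 CPM against 91.6 ± 22.4 CPM, a difference of 1.07 (SE 0.07). Aldh9a1 and Aldh5a1, aldehyde dehydrogenases, differed by 0.91 (SE 0.06) and 0.84 (SE 0.06). Of the uptake carriers of glia and meninges, Slc6a13 was higher by 2.89 (SE 0.14) and Slc6a11 by 0.37 (SE 0.12, edgeR adjusted p 0.00317).

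Partners of the decarboxylases and of synaptic vesicles went in both directions. Of 5 in the table, 1 was higher, 3 were lower and 1 was not called, with a median of -0.59. Among all genes 44.3% were called higher and 43.2% lower. Hspa8, a chaperone that binds vesicle proteins, averaged 1077 ± 265 CPM against 2677 ± 575 CPM, a difference of -1.30 (SE 0.05). Dnajc5, its co-chaperone, and Sv2a, a vesicle glycoprotein, were lower, at -0.60 and -0.59 (SE 0.05 for each), and Sv2c, a related glycoprotein, was higher by 0.91 (SE 0.11). Zdhhc17, a palmitoyl transferase that acts on the Gad2 enzyme, differed by -0.06 (SE 0.05, edgeR adjusted p 0.295).

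Some genes of these lists passed the rhythm test, and no member did. In PV-titled libraries these were Aldh9a1 (amplitude 0.31, SE 0.06, peak ZT6.47, edgeR adjusted p 0.00195), Slc6a13 (0.57, SE 0.12, peak ZT21.3, edgeR adjusted p 0.0129) and Slc38a2 (0.20, SE 0.05, peak ZT16.7, edgeR adjusted p 0.0353). In C-titled libraries Slc38a2 (0.20, SE 0.04, peak ZT18.5), Pdxk (0.16, SE 0.04, peak ZT19.6) and Npas1 (0.24, SE 0.07, peak ZT15.4) were among those called, with edgeR adjusted p from 0.000217 to 0.0401. The rhythm of Aldh9a1 differed between prefixes (edgeR adjusted p 0.0153), and its amplitude in C-titled libraries was 0.04 (SE 0.04).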

How the data were processed

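The data are ribosome-bound RNA of mouse prefrontal cortex, isolated with an antibody against haemagglutinin, with SMART-seq HT cDNA and Nextera Flex libraries, per the labels' protocols. The authors deposited 1 table of whole-number read counts for all genes. Per the submitters' processing notes, FastQC, HTSeq and DESeq2 were used with GRCm38. Their versions are not stated in the sources used here, nor is the aligner. Reads on no gene averaged 61.0% (PV-titled) and 53.1% (C-titled) and were left out of library sizes. Of 114 samples in the labels 113 were used, and 1 column was left out because its sex goes against the title it would fit. Of 212 pairs of libraries within groups none was identical, and the lowest chi-square per gene was 14.0.

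Symbols came from a GENCODE table (13051 of 13101 identifiers matched). Counts were fitted with edgeR 4.0.16 in R 4.3.3 (TMM, filterByExpr on groups of prefix, time and sex, quasi-likelihood F tests, Benjamini-Hochberg over all genes, threshold 0.05). The prefix fit had time as a factor, sex and library-number range as terms. Rhythm was tested by the cosine and sine of 24 h within a prefix, with sex and range. SE are Wald errors of these fits. Genes tested numbered 13053 with both prefixes, 13047 with PV titles alone and 13029 with C titles alone. CPM are after TMM scaling of all libraries together. A library stands apart where its median correlation lies more than 5 scaled MADs below that of its prefix. Ratios and correlations used 100000 permutations. Intervals cover the spread between libraries, and reads without molecular identifiers are not separate molecules.

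Named genes are the members, the 5 most like them per prefix (mean CPM of at least 1), up to 4 of each pathway list by size of change, and the clock genes. Members and lists were chosen with earlier results of these data known. Genes of a list that are named beyond these, with rhythm calls or as the last members of a short list, were chosen after their values were seen. Some genes that these rules name are not reported here singly, but they stay in the counts and medians of their lists. The scripts were tested on simulated data. Alternatives were RLE and no scaling, no filter, a block for the set number, leaving out each set, the libraries that stand apart or a range, DESeq2 1.42.0, other time terms, each sex and other pseudocounts.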

Additional observations from a re-analysis of the deposited data

Results flagged for a closer look

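In each of the 24 groups, the highest and lowest library of each member was compared with the rest by Dixon's gap test. It marked 10 of 72 member and group pairs. A chance rate of about 1 in 20 holds for independent values with a normal spread. The members varied together and CPM may not be normal, so this count cannot show an excess.

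In C-titled libraries, 3 of the marked libraries were of set 1 and were high in Gad1. The ZT18 female library had 91.1 CPM of Gad1, against 19.2 to 29.8 CPM in the other 4, and 27.5 CPM of Gad2, against 8.12 to 9.83 CPM. The ZT6 male library had 51.7 CPM of Gad1, against 14.2 to 21.4 CPM, and 16.4 CPM of Gad2, against 6.82 to 7.83 CPM. The ZT22 male library had 83.7 CPM of Gad1, against 14.01 to 29.3 CPM. All 3 were also high in astrocyte and interneuron markers. Of the 58 C-titled libraries, none was above the ZT18 library in the PV interneuron score (3.86, median 2.62) and 1 was above it in the astrocyte score (5.19, median 4.27). The ZT6 and ZT22 libraries had 3 and 4 libraries above them in the astrocyte score, at 5.02 and 4.99. In the pyramidal score (median 7.44) the ZT22 library was the lowest of the prefix, at 6.91. The ZT18 and ZT6 libraries had 40 and 41 libraries above them in that score. The part of these markers in the Gad1 and Gad2 levels was not tested.

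Slc32a1 was high in a C-titled ZT6 female library of set 5, at 1.34 CPM against 0.0386 to 0.361 CPM, and in a C-titled ZT10 male library of set 5, at 0.734 CPM against 0.104 to 0.240 CPM. The first of these also stands apart from its prefix over all genes. A PV-titled ZT22 male library of set 5 had 8.31 CPM of Slc32a1, against 3.63 to 4.25 CPM. A PV-titled ZT2 male library of set 3 had 628 CPM of Gad1, against 478 to 489 CPM, and the third highest PV interneuron score of its prefix (6.53, median 5.73). A PV-titled ZT18 male library of set 5 had 294 CPM of Gad1, against 393 to 400 CPM.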

How the results depend on the processing

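The call, or lack of one, of each member held in every alternative run for the 8 edgeR tests. The prefix difference in log2 ranged from 3.64 to 4.45 for Gad1, 2.99 to 3.59 for Gad2 and 4.25 to 4.98 for Slc32a1 over 15 settings. The lowest adjusted p for a rhythm over 17 settings was 0.292 for Gad1 in PV-titled libraries (amplitude 0.06 to 0.30). Same-numbered sets of the 2 prefixes did not vary together throughout (27 of 53 pairs had a correlation over 0.1, median 0.11). The median was -0.0248 for pairs of different set number with the same time and sex. The labels do not give the meaning of the set number, so these values cannot tell whether it pairs the samples. With the set number as a replicate block the Gad1, Gad2 and Slc32a1 differences were 4.12, 3.34 and 4.61, and 0.13% of genes had a rhythm difference in place of 1.12%.

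With 0.1 CPM added, the ratio of Slc32a1 to Gad1 differed by 0.14 (adjusted permutation p 0.373) and that to Gad2 by 0.89 (adjusted permutation p 1.5e-05), both of opposite sign to -1.02 and -0.24. In summed reads, an alternative chosen after seeing the data, they were 0.73 and 1.40 (adjusted permutation p 0.00012 and 1.5e-05). Slc32a1 to Gad2 lost its call without the libraries that stand apart (-0.20) and in the second range (-0.10). Leaving out 1 set at a time gave -0.35 to -0.19, losing the call without set 2, 3 or 5.

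The share of all genes called moved in several tests. For prefix by time (0.0766%) it was 0.146% with RLE, 0.046% without TMM, 0% and 0.0153% in the first and second range, and 0.00766% to 0.0459% without 1 set. For the rhythm difference it was 0.23% without TMM, 0.123% without the libraries that stand apart, 0% and 0.0153% in the ranges, and 0.0306% to 0.812% without 1 set (lowest without set 3). For the rhythm in PV-titled libraries (3.1%) it was 0.153% and 0.307% in the ranges, 0.997% in females, 0.0613% in males, 1.2% with time as a factor, 1.67% with 12 h terms, and 0.728% to 2.61% without 1 set (lowest without set 3). In C-titled libraries (27%) the same settings gave 2.9% and 10.2%, 2.07%, 3.63%, 10%, 13%, and 15.1% to 23.9%. Sex calls were 0.0153% in the first range in PV-titled libraries (0.0307%). In C-titled libraries (0.184%) they were 0.0384% and 0.0307% in the ranges, 0.622% without the libraries that stand apart and 0.0614% to 0.154% without 1 set. Sex by prefix gave 0.00766% without the libraries that stand apart. The causes were not tested, and ranges and single sexes hold fewer libraries. Few reads limit Slc32a1 in C-titled libraries.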
